A study of Anableps anableps with 4 samples.

Results

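The lens spots of the developing Anableps anableps eye are described here, the capture spots of 2 developmental sections in which crystallins made up a large part of the RNA. On this assay (Visium) a spot pools the poly(A) RNA of all cells or parts of cells lying on it, counted as unique molecular identifiers (UMIs). Lens spots were chosen by their crystallin UMIs. A spot of at least 100 UMIs was taken as a lens spot where genes whose symbol starts with cry followed by a, b or g held 20% or more of its UMIs, and as a low-crystallin spot where they held under 5%. This gave 169 lens spots among the 1914 used spots of the developmental sections, and among 4695 used spots in all 4 sections. The stage 4 head held 115 lens spots of 1135, or 10.1% (exact Clopper-Pearson 95% interval 8.44 to 12.04). A stage 3 head and a stage 5 eye shared 1 capture area, called the mixed section from here on, which held 54 of 779, or 6.93% (5.25 to 8.95). The remaining sections were adult eye 1 and adult eye 2, with 309 and 476 lens spots by the same rule. All were fresh frozen sections 10 µm thick, cut from the four-eyed fish itself and carrying the same batch number. The labels name no genetic change and no treatment, give no age beyond the stage, and do not say whether separate animals were used. Spot positions were not used, so spots of the stage 3 head and of the stage 5 eye were not told apart.

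The vertebrate lens is built from fibre cells covered at the front by a single-layered epithelium. Fibre cells fill with crystallins, soluble proteins that give the lens its refractive power, join through specialised membrane channels and junctions, assemble a cytoskeleton of beaded filaments, and lose their nuclei and other organelles as they mature. Epithelial cells divide and supply new fibres. Transcription factors such as Pax6 and Foxe3 act in the epithelium, and Prox1 acts in fibre formation.

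The crystallin share of single lens spots ran from 20.1 to 55.9% in the stage 4 head, with a median of 35.3%, and from 20.9 to 43.3% in the mixed section, with a median of 32.6%. Summed over spots, crystallins made up 36.0% of 396707 UMIs and 31.5% of 150786 UMIs, against 0.347% and 0.367% in the low-crystallin spots of the same sections. The threshold did not fall in a gap. The spots just inside it stood at 20.1, 20.2 and 20.2% in the stage 4 head and at 20.9, 21.4 and 21.4% in the mixed section, and those just outside at 19.6, 19.6 and 19.5% and at 19.9, 19.8 and 19.7%. The spots between 15 and 20% numbered 21 and 14, and those between 20 and 25% numbered 22 and 8. Median depth was 2652 UMIs in lens spots and 2599.5 in low-crystallin spots of the stage 4 head, and 2230.5 and 1609 in the mixed section. Totals over all spots ranged from 1514666 to 5167411 UMIs per section. The developmental sections shared 95 spot barcodes, none of them among lens spots. With 1 section per stage group, nothing within or between the developmental sections could be tested, and intervals there cover counting error only. In spots, fewer cells of a type and less RNA per cell cannot be told apart.

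Among genes with a crystallin symbol, beta crystallins led the mix in both developmental sections. Beta genes held 62.1% (61.8 to 62.3) of crystallin UMIs in the lens spots of the stage 4 head and 63.6% (63.1 to 64.0) in those of the mixed section. Gamma crystallins held 32.8% and 31.4%. Alpha crystallins, which are small heat shock proteins and act as chaperones as well as structural proteins, held 3.30% and 3.74%, and crybgx, a beta-gamma crystallin, held 1.85% and 1.34%. These shares describe the UMIs that chose the spots. Of 28 crystallin genes with a symbol, 26 and 25 had at least 1 UMI in lens spots, 16 in each section exceeded 1% of crystallin UMIs, and the 5 with most UMIs together held 61.3% and 60.1%.

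CRYBB1 held the most UMIs of any crystallin, with 19.8% of crystallin UMIs in each section. A crygn2 gene (ENSABLG00000003729), of a gamma class that fish share with other vertebrates, followed with 14.1% in the stage 4 head and 11.9% in the mixed section. Then came cryba1b with 9.52% and 9.79%, crybb1l1 (ENSABLG00000014736) with 9.04% and 10.3%, and CRYBA4 (ENSABLG00000014727) with 8.91% and 7.84%. Crygf held 6.85% and 8.39%, above CRYBA4 in the mixed section, and CRYBB3 (ENSABLG00000020177) held 3.84% and 5.08%. The marker crystallins cryaa, the lens-enriched alpha A chain, cryba2b and crybb1l3 held 2.48%, 3.84% and 2.05% in the stage 4 head and 2.84%, 3.75% and 2.14% in the mixed section.

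**Figure D1:**
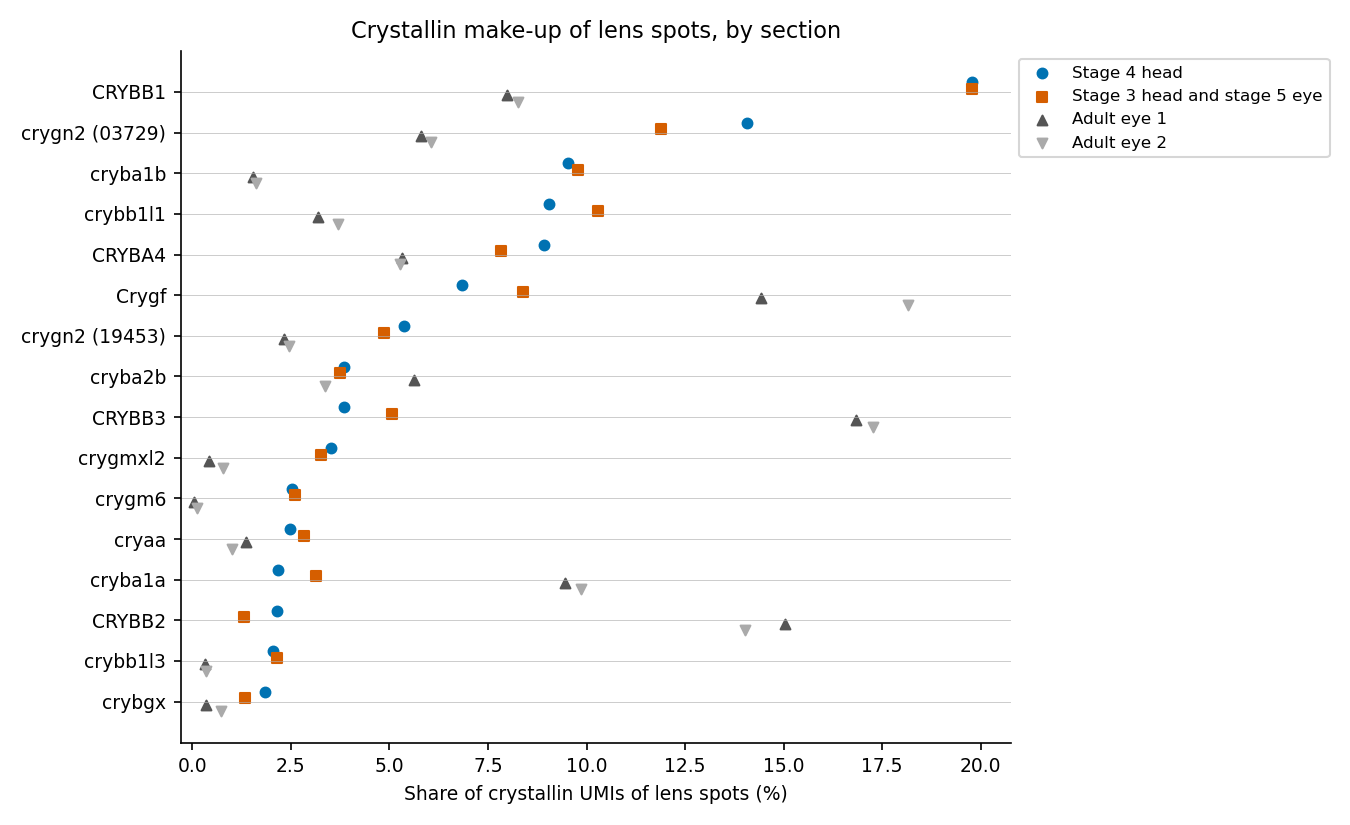
Share of crystallin UMIs in lens spots (percent, horizontal axis) held by each crystallin that reached 1% in a developmental section, with 1 point for each of the 4 sections. CRYBB1 leads in both developmental sections at 19.8% and stands at 7.99 and 8.25% in the adult eyes, whereas CRYBB2, CRYBB3, Crygf and cryba1a lie far to the right in the adult eyes.

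Among genes with a crystallin symbol, the mix differed from that of adult lens spots gene by gene while the main classes stayed close. Beta crystallins held 67.0% and 64.4% in adult eyes 1 and 2, and gamma crystallins 29.5% and 32.8%. CRYBB1 held 7.99% and 8.25% there, cryba1b 1.54% and 1.62%, and crybb1l3 0.311% and 0.337%. These 3 genes stood lower in each adult eye than in either developmental section. A gene named crygm6 (ENSABLG00000019298) went from 2.53% and 2.60% in development to 0.0490% and 0.120% in the adult eyes. CRYBB2 went the other way, from 2.14% and 1.30% to 15.04% and 14.0%. CRYBB3 stood at 16.8% and 17.3% in the adult eyes, cryba1a at 9.45% and 9.85% against 2.16% and 3.15% in development, and Crygf at 14.4% and 18.2%. A second CRYBB3 gene (ENSABLG00000017723) had 4 and 2 UMIs in the developmental sections against 18689 and 9922 in the adult eyes. No test is given for crystallins, since their sum chose the spots. Crystallin copies of similar sequence may share reads, and how reads matching several genes were counted is not given in the sources used here. ENSABLG00000018858, without a symbol, had 421817 and 652873 UMIs in adult lens spots, beside 413833 and 557457 for all gamma crystallins counted. Whether genes without a crystallin symbol encode crystallins was not tested, so the class shares hold for the symbolled genes only.

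The lens spots were then described by genes that the selection did not use. Levels below are UMIs per 1000000 non-crystallin UMIs (CPM), meaning UMIs outside the genes of the rule, so that those genes do not dilute the rest. Other abundant transcripts stay in this total. In lens spots the fibre gene list summed to 23153 CPM in the stage 4 head and 26089 in the mixed section, against 175 and 312 in low-crystallin spots. That is 132-fold (122 to 144) and 83.5-fold (75.1 to 93.1) higher. Of the 18 genes of this list, 7 had enough UMIs in both sections to be measured, meaning that lens spots held 20 UMIs of the gene or would have held 20 at its low-crystallin level. All 7 were at least 4-fold higher in lens spots of both sections, with a median log2 fold of 7.67 and 6.80. All 7 met the minimum only through their lens UMIs, so their being higher follows in part from that filter. Fibre genes without the contrast could stay unmeasured. Across all 453 measured genes the median was 0.37 and -0.14, 58 genes (12.8%) were 4-fold or more higher in both sections and 82 genes (18.1%) were 4-fold or more lower in both. The fibre genes and the crystallins come from the same spots, so their joint height describes the spots and is no test.

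The membrane proteins of fibre cells were among the most lens-restricted transcripts. The water channel mipb, the fish form of aquaporin 0, stood at 4472 CPM in the lens spots of the stage 4 head against 12.1 in its low-crystallin spots, a 369-fold difference (274 to 509). In the mixed section it stood at 3998 against 40.9, a 97.8-fold difference (73.0 to 134). LIM2 encodes a junctional membrane protein of fibre cells, and 4 genes carry a form of that name. LIM2 (ENSABLG00000016520) stood at 3077 and 3175 CPM in lens spots, 211-fold and 128-fold above low-crystallin spots. LIM2 (ENSABLG00000009934) stood at 5079 and 4472 (81.2-fold and 112-fold), and lim2.3 at 5615 and 4666 (219-fold and 76.6-fold). The fourth, lim2.2, had 57 and 17 lens UMIs, too few in the second section to be measured, at 139-fold and 41.1-fold. The gap junction protein gja8b, connexin 50, stood at 213 and 407 CPM, 197-fold and 101-fold higher in lens spots.

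Of the cytoskeletal and structural genes, BFSP1 and LGSN showed the same contrast, whereas BFSP2, CDH2 and TMOD1 were below the minimum. BFSP1 encodes filensin, a subunit of the beaded filaments, and stood at 3775 CPM in the lens spots of the stage 4 head and 8199.5 in those of the mixed section. It was 203-fold (159 to 263) and 173-fold (133 to 229.9) higher than in low-crystallin spots. Its partner BFSP2 had 18 and 10 lens UMIs, below the minimum, against 2 and 0 low-crystallin UMIs, at 132-fold in the stage 4 head. LGSN, which encodes lengsin, a lens protein related to glutamine synthetase, stood at 362 and 494 CPM and was 51.7-fold and 154-fold higher. N-cadherin, whose better covered gene is CDH2 (ENSABLG00000019773), had 7 and 8 lens UMIs, at 1.93-fold and 1.31-fold. TMOD1, a tropomodulin that caps actin filaments, had no UMI in lens spots of either section, and 35 and 9 UMIs in low-crystallin spots. With so few UMIs, CDH2 and TMOD1 cannot be said to lack the contrast.

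**Figure D2:**
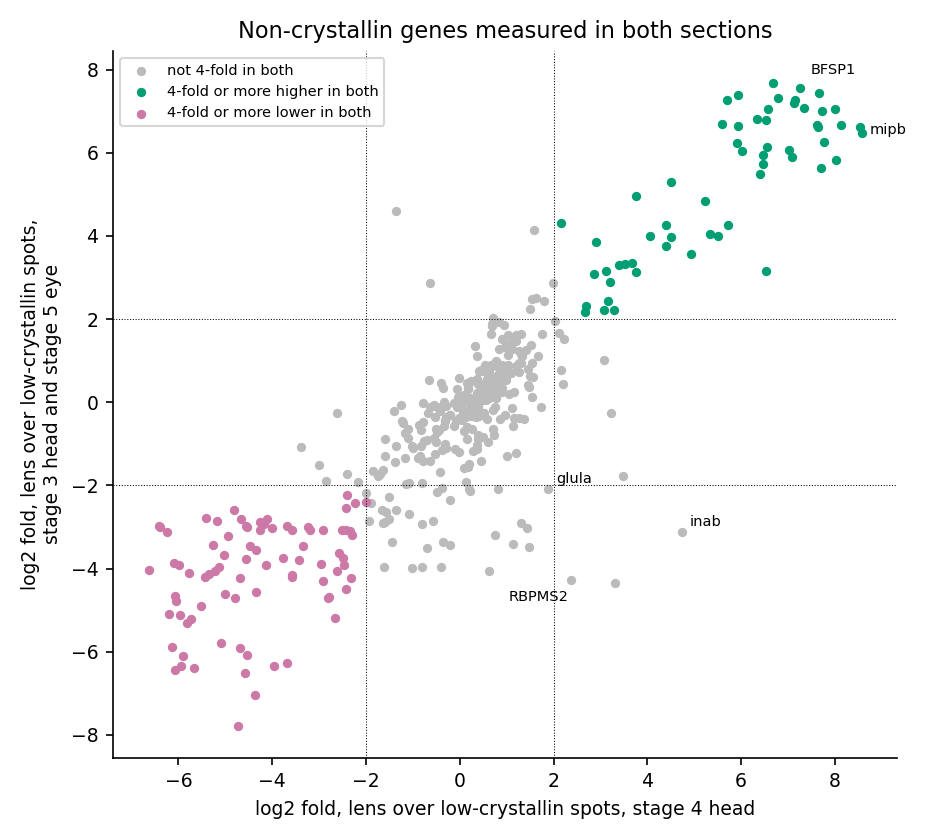
Log2 fold of each of 453 measured non-crystallin genes, lens over low-crystallin spots, in the stage 4 head (horizontal axis) and in the mixed section (vertical axis), with dotted lines at 4-fold. The 58 genes higher in both sections fill the upper right, among them mipb and BFSP1, the 82 lower in both fill the lower left, and inab and RBPMS2 lie at lower right.

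Several genes outside the fibre list were as lens-restricted. Among the 12 symbolled genes with the largest smaller fold of the sections were gpx9, of the glutathione peroxidase family, at 5670.0 and 5102 CPM (163-fold and 135-fold), and LGALS2, a galectin that binds galactosides, at 4078 and 3979 (280-fold and 101-fold). SPARCL1, a secreted matricellular protein, stood at 162 and 474 CPM, 200-fold and 98.7-fold higher, resting on 3 and 6 low-crystallin UMIs. The others were si:dkey-57a22.13 (140-fold and 148-fold), zgc:112285 (111-fold and 159-fold), zgc:153846 (92.8-fold and 111-fold) and tdh2 (380-fold and 89.8-fold). Of the 58 genes higher in both sections, 12 have no symbol in the files. The one with most UMIs, ENSABLG00000006902, held 99502 and 115364 CPM in lens spots, 61.5-fold and 101-fold above low-crystallin spots. It was picked with its values known.

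Regulators and epithelial genes were at the edge of detection. None of the 12 genes of the fibre transcription factor list was measured. Their sum stood at 146 and 126 CPM in lens spots, 5.58-fold (3.71 to 8.22) higher than in low-crystallin spots of the stage 4 head and 1.29-fold (0.666 to 2.29) in the mixed section. pitx3, a homeobox factor needed for lens development, had 17 lens UMIs in the stage 4 head and was 8.02-fold (4.16 to 14.9) higher there, but had 1 UMI in the mixed section. prox1a (ENSABLG00000008003), of the factor that drives fibre elongation in the mouse, had 10 and 4 lens UMIs, at 18.3-fold (6.50 to 53.3) and 4.83-fold (1.11 to 16.8). None of the 11 genes of the lens epithelium list was measured either, and their sum was 1.23-fold (0.765 to 1.88) and 0.604-fold (0.317 to 1.05). foxe3, an epithelial factor, had 2 and 1 UMIs in lens spots and none in low-crystallin spots. pax6b had 7 and 5 UMIs.

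Genes of organelle loss, protein protection and energy supply gave a mixed picture. None of the 13 genes of the organelle clearance list was measured in both sections, and their sum was 575 against 483 CPM in the stage 4 head, 1.19-fold (0.998 to 1.41), and 426 against 423 in the mixed section, 1.01-fold (0.723 to 1.37). Within it PLAAT1, a phospholipase that degrades lens organelles in zebrafish, had 63 and 17 lens UMIs. It was 61.4-fold and 68.5-fold higher than in low-crystallin spots, although the second section was below the minimum. SQSTM1, an autophagy receptor, stood at 0.389-fold and 0.721-fold on 9 and 8 lens UMIs. From the fibre list, dnase1l1l, a lens nuclease in zebrafish, had 30 and 18 lens UMIs at 73.1-fold and 36.2-fold. Over all 453 measured genes 12.8% were higher and 18.1% lower in both sections, shares that apply to the list counts here and to those of other tissues below. Among 3 measured chaperones none was higher and HSPB1, a small heat shock protein, was lower, with 15 and 0 lens UMIs. Among 3 measured redox genes 1 was higher, the peroxiredoxin PRDX6 (ENSABLG00000001127), at 406 and 242 CPM (9.84-fold and 4.65-fold). None of 13 measured glycolytic genes was higher and 4 were lower (ENO3, GAPDH, aldoaa and pkmb). For the chaperone, redox and glycolytic lists these counts are near what those shares give for so few genes. The enolase eno1a missed the rule at 4.11-fold and 3.89-fold. The respiratory chain had 1 lower gene of 18, NDUFA4 (ENSABLG00000018181). None of 75 measured ribosomal protein genes was called in either direction, and their sum was 1.60-fold and 1.35-fold higher in lens spots.

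Markers of other tissues were low but not absent in lens spots. The 8 measured muscle genes were all lower in both sections, and their list summed to 1296 and 96.8 CPM in lens spots against 70350.4 and 9890.1 in low-crystallin spots. pvalb4, a parvalbumin of fast muscle, stood at 871 against 53532 in the stage 4 head and at 106 against 8668 in the mixed section, 61.5-fold and 81.4-fold lower. The troponin genes TNNC2 (ENSABLG00000021103), tnnt3a and tnni2b.2, the myosin light chains MYLPF and mylz3, and the aldolase aldoaa were among the 8 symbolled genes that stood lowest. In the lens spots of the mixed section each of these 6 genes had 6 UMIs or fewer. HBE1 (ENSABLG00000017320), a haemoglobin chain, completed the 8, at 34.2-fold and 166-fold lower, the second on 1 lens UMI (29.8 to 6564). All 4 measured blood genes, 3 cartilage and bone genes, 2 connective tissue genes, 2 photoreceptor genes and 2 brain genes were lower too. So was the 1 measured pigment epithelium gene, rpe65a. In lens spots of the mixed section the muscle list held 10 UMIs and the cartilage and bone list 2. The photoreceptor, pigment epithelium and brain lists held 6, 7 and 8 there, and the connective tissue genes DCN and ogna 11 and 1. These genes thus met the minimum there only through low-crystallin spots, and their being lower follows in part from that filter. Of 5 measured surface epithelium genes only 1 was called lower, krt5. That list summed to 1040 against 2507 CPM in the stage 4 head and 561 against 4379 in the mixed section. In the stage 4 head the inner retina list instead summed higher in lens spots, at 1249 against 506 CPM, while in the mixed section it was lower, at 145 against 2211. Of its 317 lens UMIs in the stage 4 head, glula (ENSABLG00000022015) held 180 and RBPMS2 62. Of its 3 measured genes 1, rlbp1b, was lower in both sections. The part of neighbouring tissue in any of these levels was not tested.

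Fibre genes stood higher in spots with a larger crystallin share. In the stage 4 head the fibre list stood at 12991 CPM in the 37 lens spots with 20 to 30% crystallin, 20509.8 in the 36 spots with 30 to 40%, and 35874 in the 42 spots above that. In the mixed section the values were 16398 in 17 spots, 30273 in 35 spots and 48979 in 2 spots. The bands were set after the shares had been seen, since no lens spot reached 60%. Spots with under 1% crystallin stood at 91.1 and 212 CPM. At least 1 fibre gene UMI was found in 114 of 115 and 54 of 54 lens spots. Over single lens spots the fibre level and the crystallin share had a Pearson r of 0.767 and a Spearman rho of 0.841 in the stage 4 head (115 spots), and 0.586 and 0.642 in the mixed section (54 spots). Spots of a section share a library and are not replicates, so no p is given. Depth had a rho of 0.05 and -0.08 with the crystallin share.

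**Figure D3:**
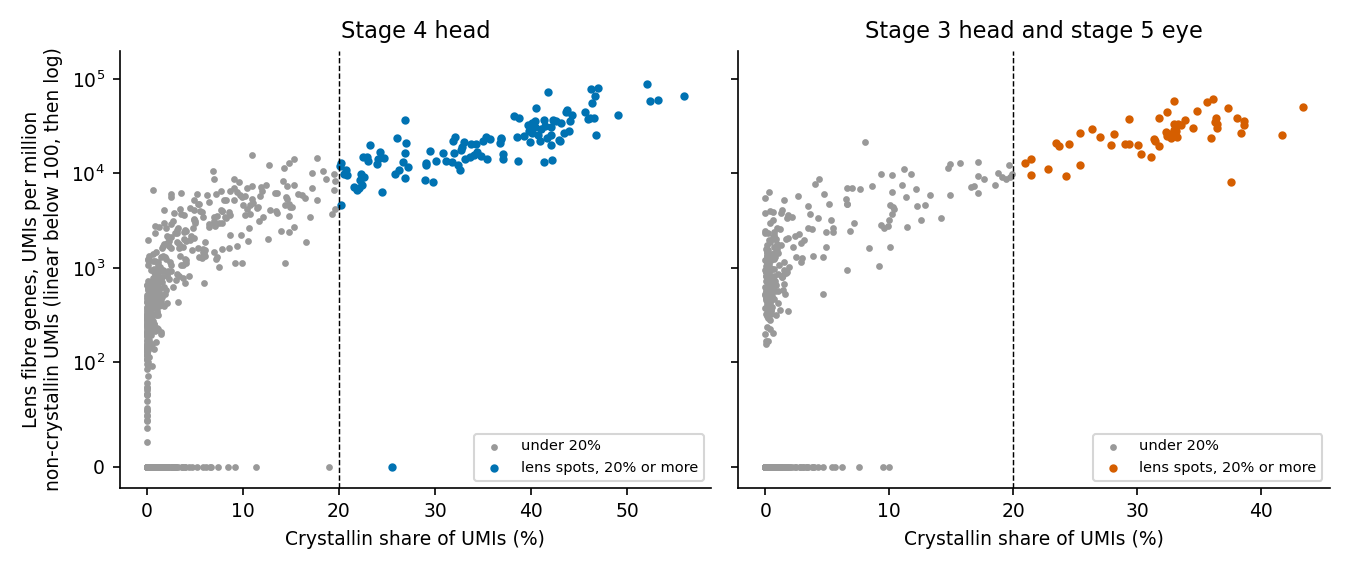
Summed level of the fibre gene list (vertical axis, CPM, logarithmic above 100 and linear below) against the crystallin share of the spot (horizontal axis, percent), 1 point per spot, with a panel for each developmental section and a dashed line at 20%. The level climbs from left to right on both sides of the line without a step at it.

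Most lists of other tissues, inner retina and blood among them, ran the opposite way over these bands in the stage 4 head, whereas muscle markers did not. The inner retina list stood at 2433, 901 and 653 CPM in the bands of 20 to 30%, 30 to 40% and above, and the blood list at 5222, 2427 and 1525. Surface epithelium stood at 2348, 578 and 487, connective tissue at 854, 360 and 205, photoreceptor at 313, 56.9 and 51.2, and brain at 199, 104 and 38.4. Pigment epithelium (398, 66.4 and 89.7) and cartilage and bone (213, 104 and 128) were lowest in the middle band. The muscle list stood at 1352, 1081 and 1537. In the mixed section the blood list stood at 893, 919 and 1393, the last on 6 UMIs in 2 spots (511 to 3031).

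The lens spots of the mixed section fell into sets that differed in many genes. The set was drawn by si:dkey-57a22.13, the gene whose uneven presence was noticed in the values, so the contrast is a description without a test. Of 54 lens spots, 22 had no UMI of it and 32 had at least 1. Among the 37 lens spots of 1000 or more UMIs, 15 had none and 22 had at least 1. The 22 held 614 UMIs, or 10548 CPM, and ranged from 2430.1 to 20393 CPM. In the 15 spots, 249 UMIs would have been due at the section's mean lens level, and the limit that a count of 0 allows is 74.1 CPM. Depth was alike, with a median of 3319.5 UMIs in spots with the gene and 3092 in spots without, the deepest of which held 9338 UMIs. The crystallin share was 31.9% and 31.0%, and the fibre gene list stood at 25974 and 26339 CPM. In the stage 4 head 29 of 90 such spots had no UMI, where 39.7 would have been due, and spots with the gene stood at 898 CPM.

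Crystallins split between these sets. The crygm6 gene ENSABLG00000019298 held 0.0330% of crystallin UMIs in the spots with si:dkey-57a22.13 and 6.67% in the spots without. Alpha crystallins ran the other way, with cryaa at 4.20% and 0.693% and cryaba, the alpha B chain, at 1.53% and 0.00550%. CRYBB3 (ENSABLG00000020177) held 7.47% and 1.48%, and single spots ranged from 4.62 to 12.4% in the first set and from 0.714 to 2.70% in the second, with no overlap. cryba1a held 4.70% and 0.896%, and its spots did not overlap either, at 2.37 to 6.91% and 0.260 to 1.63%. CRYBB2 held 1.95% and 0.302%. CRYBB3, cryba1a and CRYBB2 were above each developmental section in both adult eyes, and cryaa, at 1.37% and 1.01% there, was below. Crystallins higher in the spots without were crygmxl2 at 1.86% and 5.47% and crybgx at 0.683% and 2.40%. crybb1l1 (10.2% and 10.3%), cryba1b (9.61% and 10.1%) and crybb1l3 (2.11% and 2.15%) were alike in the sets.

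Outside the genes of the rule 217 genes were measured in these 37 spots. Of these, 15 were 4-fold or more higher in the spots with si:dkey-57a22.13 and 13 in the spots without. Their median log2 fold was 0.25. S100B, a calcium-binding protein of neural and other cells, had 90 UMIs in the spots with and none in those without, at least 20.9-fold higher taking 3 UMIs as the floor. ASMT, named for the last enzyme of melatonin synthesis, was 12.2-fold higher (3.13 to 104.5, on 2 UMIs without), eno1a 7.10-fold (5.20 to 9.91), SPARCL1 5.85-fold and gja8b 4.87-fold. In the other direction, si:dkey-57a22.15 had 0 and 85 UMIs, at least 40.7-fold higher in the spots without. zgc:112285 was 22.5-fold (14.0 to 38.5) and zgc:153846 9.51-fold (5.99 to 15.9) higher there. FHL2, a LIM domain protein, had 1 and 28 UMIs, and its paralogue fhl2b had 0 and 22. HOPX, a homeodomain-only protein, was 4.72-fold, krt8, an epithelial keratin, 6.61-fold and APOD, a lipid carrier, 5.92-fold higher. Of the genes without a symbol, ENSABLG00000006902 took 51157 CPM in the first set and 211029 in the second.

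Lists of other tissues differed in part between the sets. The surface epithelium list stood at 172 CPM in spots with si:dkey-57a22.13 and 1135 in spots without, and the connective tissue list at 34.4 and 419.6, on 2 and 17 UMIs. The blood list stood at 807 and 963. Glycolytic genes summed to 11716 and 4122, on 682 and 167 UMIs of which eno1a held 449 and 44, and eno1a was the 1 of 4 measured glycolytic genes that was 4-fold higher. Ribosomal protein genes summed to 444282 and 395423. The part of surrounding tissue in the split was not tested, and which of the stage 3 head and the stage 5 eye held which spots cannot be told apart here.

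**Figure D4:**
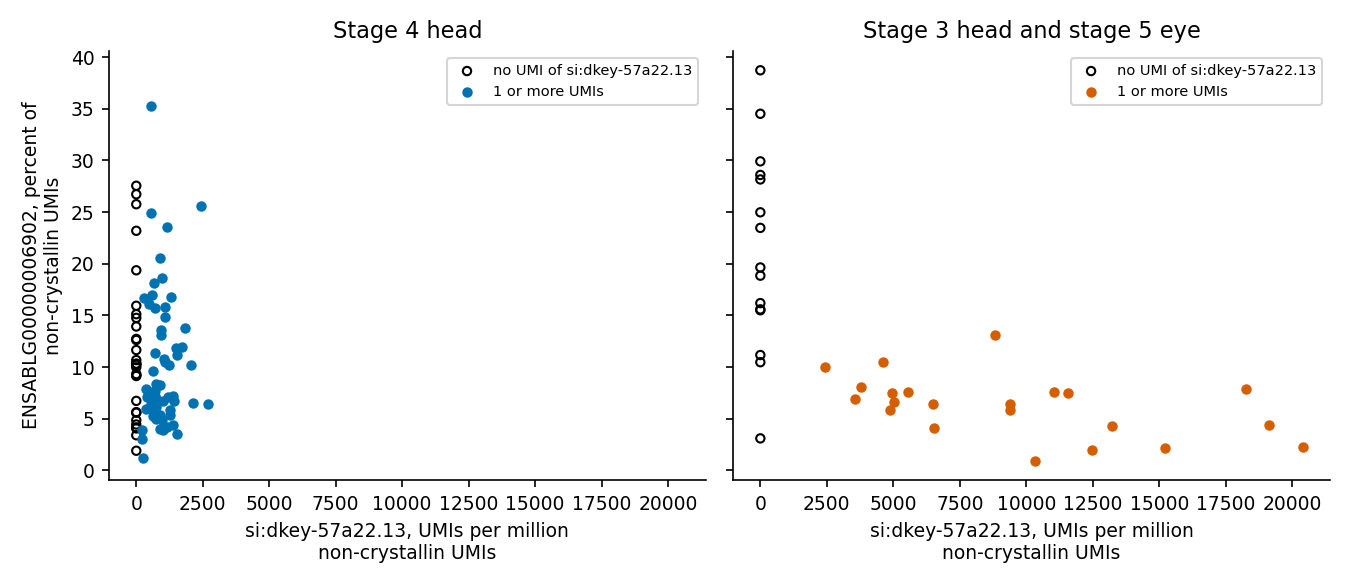
Lens spots of 1000 or more UMIs in each developmental section, by their level of si:dkey-57a22.13 (horizontal axis, CPM) and of ENSABLG00000006902 (vertical axis, percent of non-crystallin UMIs), with open points for spots without a UMI of the former. In the mixed section the 22 filled points start at 2430.1 CPM and lie clear of the 15 open points at 0, and in the stage 4 head 29 open points adjoin the filled ones.

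The fibre list summed to similar levels in the lens spots of the stage 4 head and of the mixed section, at 23153 and 26089 CPM. Of 577 genes with 20 or more UMIs in the section with more, 74.2% were within 2-fold of each other, 44 (7.63%) were 4-fold or more higher in the stage 4 head and 14 (2.43%) in the mixed section. None of 9 measured fibre genes differed 4-fold, but at these shares few or none of 9 would be due. Their median log2 fold was -0.05, beside 0.18 over all 577 genes. Of the 44 genes 19, and of the 14 genes 6, differed 4-fold the same way in the low-crystallin spots of these sections. The symbolled genes that differed most are given next. HBE1 (ENSABLG00000017311) stood at 1320.0 CPM in the stage 4 head and at 29.0, or 3 UMIs, in the mixed section, 45.5-fold apart (15.4 to 221.5). The haemoglobin alpha genes hbaa2 (ENSABLG00000017319) and hbaa2 (ENSABLG00000017310) stood 14.0-fold and 13.0-fold higher in the stage 4 head. These 3 globins were also 5.53-fold, 4.83-fold and 5.56-fold higher in its low-crystallin spots. glula (ENSABLG00000022015), a glutamine synthetase found in retinal glia, stood at 709 and 58.1 CPM, 12.2-fold (5.50 to 33.7) apart, whereas in low-crystallin spots it stood at 193 and 247. MSMO1, an enzyme of sterol synthesis, had 85 UMIs in the stage 4 head and none in the mixed section, at least 11.5-fold.

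Among genes with a symbol APOD and S100B shared the largest fold in favour of the mixed section. APOD stood at 2207 CPM against 142 in the stage 4 head, 15.6-fold (10.9 to 22.8). Its low-crystallin spots differed alike, 14.6-fold. S100B stood at 919.7 against 59.1, also 15.6-fold (8.97 to 28.9), while low-crystallin spots differed by 1.35-fold. si:dkey-57a22.13 stood at 6157 against 678, 9.08-fold (7.66 to 10.8), gb at 736 against 55.2, and slc20a1b, a phosphate transporter, at 203 against 31.5. Low-crystallin spots differed the same way by 8.59-fold for si:dkey-57a22.13, 50.5-fold for gb and 1.65-fold for slc20a1b. Of the marker lists, 6 of 7 measured muscle genes, 3 of 3 inner retina genes and 2 of 4 blood genes were 4-fold or more higher in the lens spots of the stage 4 head. Their part in the difference between the sections was not tested.

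The design sets development against the adult eye, and for lens spots this comparison had 2 sections on each side. Counts of lens spots were summed per section and tested with edgeR's quasi-likelihood test. Genes with a crystallin symbol stayed in the fit, the scaling and the adjustment, and were left out only of the 2799 genes tallied here. At a Benjamini-Hochberg adjusted p under 0.05, 94 genes (3.36%) were higher in development and 106 (3.79%) lower, and 801 genes had an unadjusted p under 0.05. The median log2 fold of all genes tested was 0.01. The developmental side joins sections of different stages, and the p-values measure only the spread between these 4 sections. The counts depended on single sections. Without adult eye 1 the test called 4 and 21 genes, without adult eye 2 45 and 58, without the stage 4 head 64 and 170, and without the mixed section 336 and 311, where the lone section of a side was assumed to vary like the other side. Folds below are log2 from the fit, whose TMM scaling differs from that of the CPM levels. Over unfiltered genes the TMM factors were 1.41 and 2.13 in development against 0.575 and 0.580 in the adult eyes. Within the CPM total, si:dkey-57a22.13 held 178820 and 161822 in the adult eyes against 678 and 6157 in development. ENSABLG00000018858 held 280718 and 327157 against 20446 and 11520. Such large transcripts lower the adult CPM of every other gene.

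Among the symbolled genes with the smallest adjusted p, capn3a, a calcium-dependent protease of the calpain family, stood at 563 and 813 CPM in development and at 37.3 and 39.6 in the adult eyes, a log2 fold of 3.42 (SE 0.32, edgeR adjusted p = 0.0017). NDUFA4 (ENSABLG00000018181), a protein of the respiratory chain, stood at 142 and 126 against 6.65 and 6.51, and cox6b1, a cytochrome c oxidase subunit, at 154 and 194 against 20.6 and 12.5. aifm5, of the apoptosis-inducing factor family, stood at 221 and 252 against 26.6 and 31.1. For these genes the developmental and adult values did not overlap, which follows from their pick by adjusted p and is no further support. fabp7b, a fatty acid-binding protein, stood at 1044 and 165 against 4.66 and 4.51, with a wide gap between the developmental sections. OTOS, known as otospiralin in the mammalian inner ear, had 13 and 4 developmental UMIs. In both developmental sections OTOS and NDUFA4 (ENSABLG00000018181) were lower in lens than in low-crystallin spots, by at least 6.02-fold and 4.72-fold. A better covered NDUFA4 gene (ENSABLG00000008301) was not called, at 1036 and 678 against 823 and 693 (log2 fold -0.50, edgeR adjusted p = 0.338). The globins hbbe2 (193 and 426 against 0.665 and 1.00) and hbae5 (185 and 319 against 1.33 and 5.01) are marker genes of blood. Without adult eye 1, the calls of capn3a, NDUFA4, aifm5, cox6b1 and OTOS were lost (edgeR adjusted p = 0.0509, 0.0606, 0.182, 0.0826 and 0.374), as were those of cox6b1 and OTOS without adult eye 2 (0.0577 and 0.208).

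Among genes with a symbol, those lower in development were led by ptgdsb.1, a lipocalin of the prostaglandin D synthase family, at 173 and 203 CPM against 3572 and 3583 in the adult eyes, a log2 fold of -4.97 (SE 0.28, edgeR adjusted p = 3.0e-04). The fibre membrane gene lim2.2 stood at 225 and 165 against 1303 and 1527 (log2 fold -3.53, SE 0.33, edgeR adjusted p = 0.0017). CLU, the extracellular chaperone clusterin, stood at 142 and 194 against 580.3 and 658, and SERPINB1, a protease inhibitor, at 55.2 and 48.4 against 298 and 268. Each adult value lay above both developmental values for these genes, which again follows from the pick. ADPRH, a hydrolase that removes ADP-ribose from arginine, stood at 39.4 and 38.7 against 228 and 235, tspan33b, a tetraspanin, at 15.8 and 29.0 against 226 and 209, and zgc:175088 at 567 and 600.2 against 2893 and 2378. si:ch211-130m23.3 had 1 and 0 developmental UMIs against 166 and 282 in the adult eyes. All 8 calls held in each of the 9 alternatives, without any single section included.

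**Figure D5:**
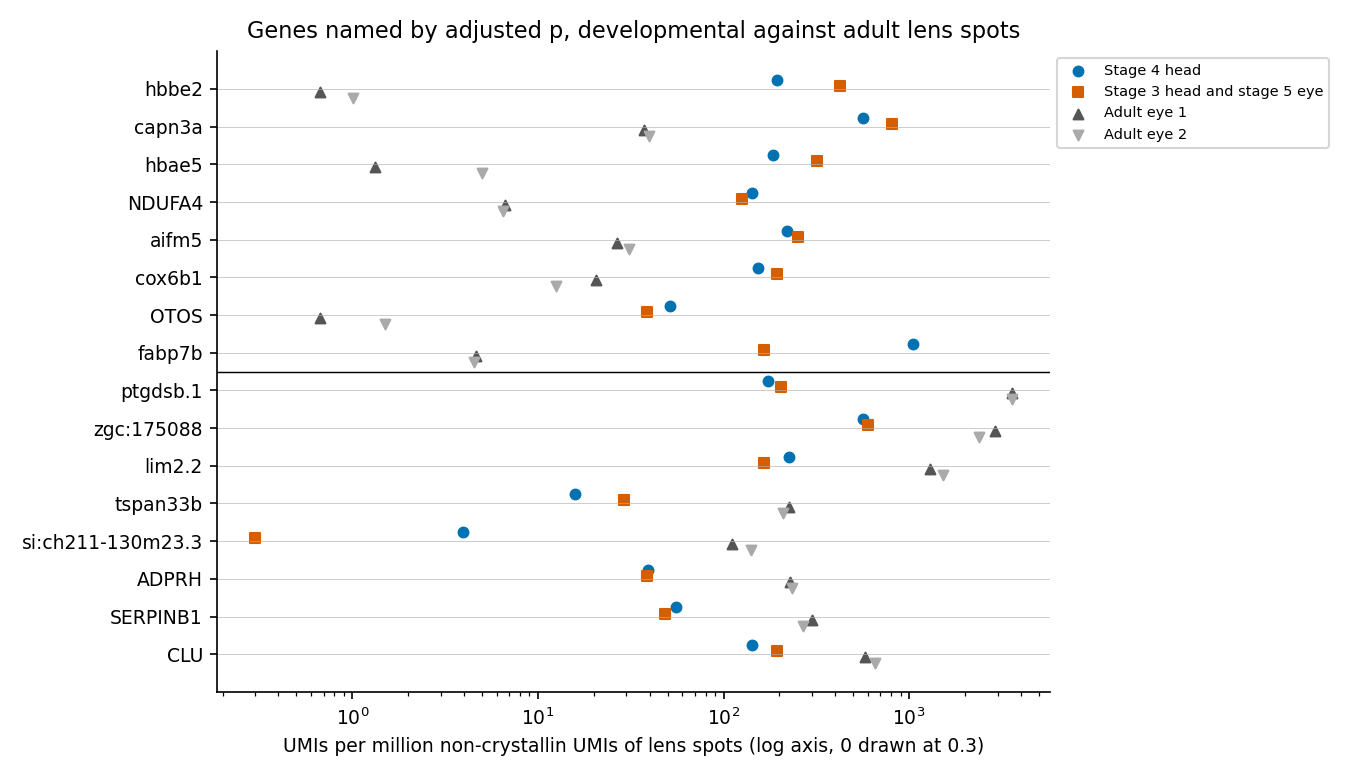
Level in lens spots (CPM, logarithmic axis with 0 drawn at 0.3) of the 8 symbolled genes with the smallest adjusted p higher in development (upper part) and lower in development (lower part), 1 point per section. ptgdsb.1 lies at 173 and 203 in the developmental sections against 3572 and 3583 in the adult eyes, and capn3a at 563 and 813 against 37.3 and 39.6.

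The largest transcripts of the adult lens were among those lower in development. si:dkey-57a22.13 stood at 678 and 6157 CPM in the developmental sections against 178820.0 and 161822 in the adult eyes, a log2 fold of -6.44 (SE 0.95, edgeR adjusted p = 0.0118). ENSABLG00000018858, which has no symbol, stood at 20446 and 11520.0 against 280718 and 327157 (log2 fold -4.94, SE 0.44, edgeR adjusted p = 0.0015). ENSABLG00000018860 had 5 and 1 UMIs in development against 41204 and 67352 in the adult eyes (log2 fold -11.53, SE 0.47, edgeR adjusted p = 5.5e-05). ENSABLG00000018867 had no UMI in the developmental lens spots against 3997 and 8170 UMIs in the adult eyes. ENSABLG00000006902 ran the other way, at 99502 and 115364 against 3918 and 7588 (log2 fold 3.49, SE 0.39, edgeR adjusted p = 0.0035). The genes without a symbol were picked with their values known. These 5 calls held in every alternative run, any single section left out included.

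Of 14 tested fibre genes none was higher in development and 2 were lower, lim2.2 and lim2.3. Over all 2799 genes 3.36% were higher and 3.79% lower, shares that also apply to the list counts below. At these shares few or none of 14 would be due in either direction. lim2.3 stood at 5615 and 4666 against 7669 and 7130 (log2 fold -1.23, SE 0.26, edgeR adjusted p = 0.0376), a call that held in 4 of 9 alternatives and was lost, among others, without adult eye 1 or without adult eye 2, with an edgeR adjusted p from 0.00234 to 0.523 over the alternatives. mipb, at 4472 and 3998 against 1283 and 1424, had a log2 fold of 0.94 (SE 0.26, edgeR adjusted p = 0.0643), and BFSP1, whose values overlapped, one of -0.95 (SE 0.34, edgeR adjusted p = 0.121). The list's median log2 fold was 0.24. Of 4 tested fibre transcription factors, prox1a (ENSABLG00000008003) was lower, at 39.4 and 38.7 against 73.2 and 76.7 (edgeR adjusted p = 0.0399), a call that held in 4 of 9 alternatives and was lost, among others, without either adult eye (0.215 at most). None of 4 tested epithelial genes passed.

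Of 8 tested genes of organelle clearance, PLAAT1 was higher in development, at 248 and 165 against 11.3 and 31.1 (log2 fold 2.58, SE 0.53, edgeR adjusted p = 0.034, lost without adult eye 1 or the stage 4 head, 0.259 at most), and SQSTM1 was lower (log2 fold -3.07, edgeR adjusted p = 0.0069). Of 11 redox genes, the peroxiredoxins PRDX6 (ENSABLG00000001127) and PRDX5 were lower, at log2 folds of -2.50 and -2.01 (edgeR adjusted p = 0.0114 and 0.0145). Both calls were lost without adult eye 1 (0.0513 and 0.0979). Of 10 chaperones 1 was higher, dnajb1b. Glycolytic genes had the highest median of the metabolic lists, a log2 fold of 1.27 with all 17 tested genes positive, and 4 passed the test (pkma, tpi1b, gpib and aldoaa). Of these, aldoaa had 64 and 2 developmental lens UMIs. It was 53.2-fold and 55.8-fold lower in lens than in low-crystallin spots of the developmental sections. Of 27 respiratory chain genes 3 were higher and 1 lower, with a median of 0.01. Of 80 ribosomal protein genes 1 was higher and 1 lower, with a median of 0.44 and 76 of 80 positive, beside a median shift of -0.50 over the shared genes in a fit without the filter on low counts. The ribosomal list summed to 441847 and 423925 CPM in development against 200912 and 174418 in the adult eyes. These CPM sums are not scaled by TMM. Large adult transcripts lower them in the adult eyes, so their gap is no measure of the ribosomal genes alone. Without adult eye 1 every call named or counted in these chaperone, glycolytic, respiratory and ribosomal lists was lost.

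Several lists of other tissues summed higher in CPM in the developmental lens spots. As above, large adult transcripts lower the adult CPM. The muscle list summed to 1296 and 96.8 CPM in development against 36.6 and 61.1 in the adult eyes. Its mixed section value rests on 10 UMIs, and the counting interval there (46.4 to 178.0) spans that of adult eye 2 (50.8 to 73.0). The blood list summed to 2924 and 929 against 168 and 129. The inner retina list summed to 1249 and 145 against 105 and 136. Its counting interval in the mixed section (81.3 to 239.5) likewise spans that of adult eye 2. Of the tested genes 3 of 6 muscle genes, 2 of 4 blood genes and 2 of 5 surface epithelium genes passed as higher, against 0 of 6 inner retina, 0 of 4 connective tissue and 0 of 2 pigment epithelium genes, and without adult eye 1 only the blood genes still did. TNNC2 (ENSABLG00000021103), tnnt3a and MYLPF, the muscle genes that passed the test, had 3, 1 and 1 UMIs in the mixed section. The surface epithelium list summed to 1040.2 and 561 against 151 and 247. The photoreceptor list stood lower, at 126 and 58.1 against 166 and 224. Of the 94 genes higher in development 9 belong to lists of other tissues, among them COL2A1 of cartilage and bone and mbpa of brain, and of the 106 lower 1 does, pde6ha of photoreceptors, which leaves 85 and 105. The part of other tissues in the rest was not tested.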

How the data were processed

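Sections of Anableps anableps heads and eyes were profiled with Visium. The deposited matrices hold unnormalized UMI counts, which the file headers attribute to Space Ranger 3.1.3. The genome build, annotation and alignment settings are not given in the sources used here, and no reference was used, so no sequence or coordinate is given. Of 22934 genes listed, 17517 have a symbol and 28 are crystallins by the rule. Counts were summed over spots of a class, with no doublet calling. Levels are CPM over non-crystallin UMIs, with exact 95% Poisson (levels) and Clopper-Pearson (shares) intervals, which cover counting error only. A class at 0 was taken as 3 UMIs for bounds. Lens against low-crystallin calls took 4-fold in both sections, with a class under 3 UMIs taken as 3 UMIs. Developmental against adult counts were tested in R 4.3.3 by the quasi-likelihood test of edgeR 4.0.16, after filterByExpr and TMM scaling and with Benjamini-Hochberg adjustment, with DESeq2 1.42.0 as an alternative, and the script was tested on simulated data. Python 3.11.15 was used elsewhere.

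Named genes were the fibre, transcription factor and epithelium lists, the 12 symbolled genes with the largest and 8 with the lowest folds, crystallins over 1%, the 5 per direction differing most between the developmental sections, and the 8 per direction with the smallest adjusted p. The members, lists and tests were chosen with earlier results of these data known.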

Additional observations from a re-analysis of the deposited data

Results flagged for a closer look

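In the stage 4 head 3 genes were 4-fold or more higher in lens spots than in low-crystallin spots and in the mixed section 4-fold or more lower, and the difference between the sections was not tested. inab, a neuronal intermediate filament gene, had a log2 fold of 4.73 in the stage 4 head (20 lens and 11 low-crystallin UMIs) and -3.12 in the mixed section (1 and 316 UMIs). RBPMS2, an RNA-binding protein of retinal ganglion cells, had 2.36 (62 and 176 UMIs) and -4.27 (2 and 699 UMIs). ENSABLG00000008346, without a symbol, had 3.32 (88 and 129 UMIs) and -4.34 (0 and 736 UMIs). In the mixed section the lens counts of all 3 genes, being under 3 UMIs, were taken as 3 UMIs. These folds are therefore smaller in size than the counts alone give. The inner retina list summed to 1249 against 506 CPM in the stage 4 head and to 145 against 2211 in the mixed section. The part of retinal RNA in these lens spots was not tested.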

How the results depend on the processing

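No paired analysis was possible because the developmental sections carry no replicate number that pairs them with the adult eyes. Across the main results 32 alternative values moved beyond a set margin and 29 stayed within it, and counts have no sign that could reverse. None of the 20 and 16 genes counted at the end reversed. They were picked for large folds or small adjusted p, so this follows in part from the pick. Without the stage 4 head MYLPF, called against adult, went from a log2 fold of 4.54 to -0.00, and HBE1 (ENSABLG00000017311) and glula (ENSABLG00000022015), not called, went to -0.59 and -0.91. At a crystallin share of 10% or more there were 178 lens spots in the stage 4 head and 89 in the mixed section, and at 40% or more 42 and 2. Beta crystallins then held 60.9% (10%) and 61.5% (40%) in the stage 4 head and 69.5% (40%) in the mixed section. Genes higher in lens spots numbered 15 at a share of 40%, 30 with a minimum of 50 UMIs per gene and 109 in the stage 4 head alone. Genes lower numbered 9 at a share of 40%, 128 over all UMIs, 38 with a minimum of 50 UMIs, 223 in the stage 4 head alone and 155 in the mixed section alone. Genes differing between the developmental sections numbered 9 at a share of 40% and 28 with a minimum of 50 UMIs. Fewer spots or genes enter at the stricter settings, and other causes were not tested. For development against adult, genes higher and lower numbered 42 and 64 with DESeq2, 152 and 376 with no filter, 171 and 320 with 3 groups, 67 and 70 with crystallins left out of the fit, and 52 and 87 at a share of 40%. Leaving out 1 section gave 4 to 336 higher and 21 to 311 lower. The median log2 fold of genes shared with the main fit shifted by -0.22 with DESeq2 and -0.50 with no filter. Of 220 values of the 20 named genes in the lens contrast 205 kept their call and 15 lost it, 13 of them at a share of 40%. Of 140 values of the 16 named genes against adult 133 kept it and 7 lost it, all 7 without an adult eye.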
